A study of Mus musculus with 15 samples.

Results

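Mitochondrial solute carriers are the proteins of the inner mitochondrial membrane that exchange nucleotides, phosphate, organic acids, amino acids, cofactors and fatty acid carnitine esters between cytosol and matrix, and the uncoupling proteins belong to the same family. Here they were taken as every probe whose platform symbol began with Slc25a or was Ucp1, Ucp2 or Ucp3, with a detection p-value under 0.05 in at least 3 of the 15 arrays. By this rule 50 probes of 34 genes were tested, of 79 probes and 48 genes of the family on the array, beside 19027 probes and 10838 genes tested in all.

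Whole-kidney RNA of male C57BL/6 mice was hybridised to Illumina mouse bead arrays, 15 in all. Each array held an individual kidney sample, and p-values measure the spread between these samples. RES 1W mice (4 arrays, aged 4 weeks) could drink for only 15 min each day during the 1 week that followed weaning at 3 weeks of age, and CON 1W mice (4 arrays, aged 4 weeks) drank freely. RES 4W mice (4 arrays, aged 7 weeks) were restricted in the same way for 4 weeks, and CON 4W mice (3 arrays, aged 7 weeks) drank freely. All mice had free access to the same purified diet, AIN-93G. The study reported that restricted mice ate less in the first few days and caught up once the first week had passed. The part of food intake in the carrier results was not tested.

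The family matters to the kidney because the proximal tubule burns fatty acids and must move fuel, phosphate and ADP across the inner membrane to drive ion transport. The carnitine carrier brings fatty acids into the matrix, the adenine nucleotide and phosphate carriers supply ATP synthesis, and the uncoupling protein Ucp1 lets protons leak back and makes heat in brown fat. Carriers are made in the cytosol and reach the inner membrane through the Tom and Tim import complexes.

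Levels are log2 intensities after background correction and quantile normalization (limma's neqc), and a gene was read from its tested probe with the highest mean level. Levels of different probes are not comparable, so each statement sets a probe against itself in other samples. A gene was called changed at an adjusted p under 0.05 in a linear model over the 4 groups (limma, Benjamini-Hochberg over all tested probes), and differences are log2 fold changes with their standard error (SE). With 4 arrays against 4 or 4 against 3, an exact permutation test of group means cannot give a p below 0.029. With 4 against 3, groups that did not overlap could also give 0.057.

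Between 15295 and 17433 probes were detected per array. RES 4W replicate 1 stood apart from the other arrays of its group: on the leading axis of a principal component analysis over tested probes, which carried 28.3% of the variance, it scored -11.9, while RES 4W replicates 2, 3 and 4 scored 38.6, 39.5 and 38.6 and the arrays of the other groups lay between -12.8 and -6.06. Its nearest array over all tested probes was CON 4W replicate 3, so the 4-week differences that the results turn on are given with and without it. Among the deposited intensity columns, RES 4W replicates 2, 3 and 4 stood together between RES 1W replicates 2 and 3. RES 4W replicate 1 came last, after the CON 4W arrays. The labels do not say what this order reflects, and its part in the results was not tested. All of the 8 listed proximal tubule markers had a probe, and their summed level (log2 of the summed linear levels) ran from 15.57 to 15.69 in RES 4W and from 15.72 to 15.75 in CON 4W arrays, and from 15.44 to 15.63 in RES 1W and from 15.56 to 15.76 in CON 1W arrays. The brightest markers weigh most in such a sum: of the 8 single markers, 2 were called higher and 0 lower after 4 weeks. These were Slc5a2, the glucose transporter of the early proximal tubule, at 9.43 to 10.22 in RES 4W against 8.89 to 9.06 in CON 4W arrays, and Slc5a12, a lactate transporter, at 9.70 to 10.31 against 9.35 to 9.45. After 1 week 1 was called higher and 1 lower. The 4 collecting duct principal cell markers summed to 11.33 to 11.57 in RES 1W against 10.73 to 10.90 in CON 1W arrays, and to 11.28 to 11.93 in RES 4W against 10.87 to 10.995 in CON 4W arrays. Of the 4 single markers, 2 were called higher after 1 week and 1 after 4 weeks, and 0 lower. They did not move together: after 1 week Aqp2 was at 9.72 to 10.28 in RES 1W against 8.26 to 8.87 in CON 1W arrays. Scnn1b was at 8.85 to 8.90 in RES 1W against 9.01 to 9.32 in CON 1W arrays. The sums of thick ascending limb and podocyte markers were also above all CON 1W arrays in every RES 1W array, at 14.69 to 14.82 against 14.50 to 14.62 and at 11.31 to 11.65 against 11.05 to 11.26. After 4 weeks the podocyte sum was 11.22 to 11.42 in RES 4W against 10.89 to 11.18 in CON 4W arrays, and the endothelial sum 11.17 to 11.32 against 10.998 to 11.13, again with no overlap. Among single markers, 1 of 3 for the thick ascending limb was called higher after 1 week and 0 of 3 for podocytes in either comparison. Of the 4 endothelial markers 1 was called higher after 4 weeks. The part of these shifts in the carrier results was not tested, and fewer cells of a type cannot be told apart from less RNA per cell in whole-kidney RNA.

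Of the 48 genes, 14 had no tested probe: Slc25a2, Slc25a4, Slc25a13, Slc25a18, Slc25a21, Slc25a22, Slc25a27, Slc25a31, Slc25a40, Slc25a41, Slc25a43, Slc25a46, Slc25a54 and Ucp3. Ucp2 was not analysed here, since no probe carried that symbol. Among the tested genes, 29 were detected on all arrays, 23 had 1 tested probe and 11 had 2 or more.

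Promoter windows of RefSeq (build GRCm38.p6, from 250 bases before to 50 after each annotated start) were found for 39 family symbols, 28 of them tested. The cAMP response element TGACGTCA, which is its own reverse complement and was searched on both strands, lay in 1.79% of all 32851 windows. It lay in the windows of 2 carrier genes, Slc25a25 and Slc25a36, which are shown because Slc25a25 was called with age and Slc25a36 was called with 4 weeks of restriction. The capitals mark the element, 150 bases before the start in the Slc25a25 window, which is 1 of 3 windows of that gene (chr2:32424017-32424316, minus strand), and 161 bases before the start of Slc25a36 (chr9:97110992-97111291, minus strand). The genes and the motif were chosen after their values were seen, and the match is a description of these letters.
Slc25a25: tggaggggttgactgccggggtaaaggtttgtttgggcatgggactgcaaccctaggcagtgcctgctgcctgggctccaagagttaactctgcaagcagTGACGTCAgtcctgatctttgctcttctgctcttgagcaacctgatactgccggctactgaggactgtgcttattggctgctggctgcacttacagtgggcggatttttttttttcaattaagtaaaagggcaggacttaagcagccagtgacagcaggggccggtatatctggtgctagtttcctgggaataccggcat
Slc25a36: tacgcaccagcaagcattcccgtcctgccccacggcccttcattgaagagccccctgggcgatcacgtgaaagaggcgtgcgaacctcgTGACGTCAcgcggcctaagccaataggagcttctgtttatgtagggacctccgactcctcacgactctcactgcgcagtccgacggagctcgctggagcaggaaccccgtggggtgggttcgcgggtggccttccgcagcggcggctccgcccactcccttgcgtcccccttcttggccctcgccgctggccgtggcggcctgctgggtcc

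The E-box CACGTG (both strands) lay in 7.15% of windows and in those of 7 carrier genes, Slc25a36 among them. A direct repeat of AGGTCA spaced by 1 base (AGGTCA, any base, AGGTCA, both strands), a motif that PPAR receptors bind, lay in 0.0396% of windows and in 0 carrier windows. The tonicity-responsive element consensus, searched on both strands, lay in 4.96% of windows and in those of 3 carrier genes, of which 0 were tested.

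The typical carrier gene differed little between groups, and medians over the family lay near those over all genes. In RES 1W against CON 1W kidneys the median log2 fold change of the 34 genes was 0.03, against -0.00096 over all genes, and in RES 4W against CON 4W kidneys it was -0.04 against -0.02. Median absolute differences were 0.13 for carriers against 0.12 for all genes after 1 week, and 0.16 against 0.17 after 4 weeks. For CON 4W against CON 1W kidneys the median was -0.04, against 0.00057 over all genes.

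**Figure D1:**
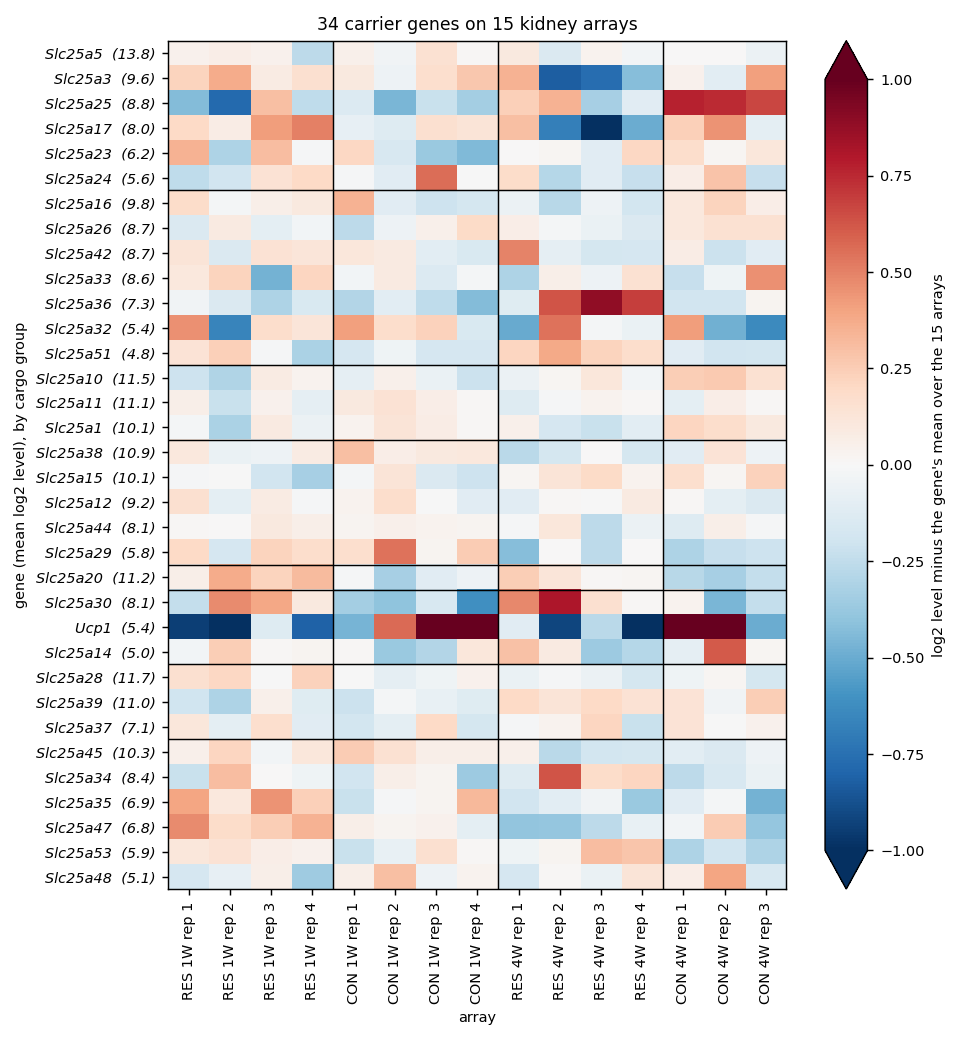
Level of 34 carrier genes on 15 arrays, as the log2 level minus the gene's mean over all arrays (colour, capped at 1 in either direction). Rows are genes by cargo group with the mean log2 level in brackets, and columns are arrays by group. Slc25a25 is high in the 3 CON 4W arrays, and Slc25a36, Slc25a3 and Slc25a17 depart from the rest in RES 4W replicates 2, 3 and 4.

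After 1 week of restriction 0 of 34 carrier genes were called, against 3.4% of all genes. At an unadjusted p under 0.05 there were 4, Slc25a20, Slc25a30, Slc25a47 and Ucp1, against 16% of all genes. Without RES 4W replicate 1 the number called was 1 (Slc25a20), against 5.07% of all genes. Groups did not overlap for 2 of 34 genes, Slc25a20 and Slc25a47, against 11.3% of all genes. The highest log2 fold change of a carrier gene was that of Slc25a30, the kidney mitochondrial carrier, at 0.56 ± 0.18 (SE; adjusted p = 0.13, limma), and the most negative that of Ucp1, at -1.56 ± 0.45 (adjusted p = 0.082).

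Slc25a20, the carnitine-acylcarnitine carrier, was called after 4 weeks of restriction, and its difference after 1 week, which was not called, was of almost the same size. Its levels were 11.27, 11.59, 11.44 and 11.54 in RES 1W and 11.21, 10.88, 11.10 and 11.17 in CON 1W kidneys. Every RES 1W array was above every CON 1W array (log2 fold change 0.37 ± 0.10, adjusted p = 0.065 with limma; exact permutation p = 0.029, n = 4 and 4, two-sided). Without RES 4W replicate 1, an array of neither group, the adjusted p was 0.040. In the older mice its levels were 11.46, 11.34, 11.23 and 11.24 in RES 4W and 10.94, 10.89 and 10.98 in CON 4W kidneys. Again the groups did not overlap, and the gene was called (0.38 ± 0.11, adjusted p = 0.0499, limma; exact permutation p = 0.029, n = 4 and 3), with a fold of 1.30. Without RES 4W replicate 1 it was 0.33 ± 0.11 (adjusted p = 0.040). The effects of 1 and 4 weeks differed by 0.0092 ± 0.149 (adjusted p = 0.98).

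The dimmer Slc25a20 probe gave a larger value after 4 weeks. Its levels were 7.43, 8.38, 8.37 and 8.60 in RES 4W and 6.63, 7.00 and 6.86 in CON 4W kidneys, and 7.18, 7.78, 7.22 and 7.80 in RES 1W against 7.15, 7.04, 7.69 and 7.50 in CON 1W kidneys. RES 4W replicate 1 lay among the RES 1W arrays and the other RES 4W arrays above all others. The difference was 1.37 ± 0.25 after 4 weeks (adjusted p = 0.011, limma; 1.62 ± 0.19 without replicate 1, adjusted p = 4.3e-05) and 0.15 ± 0.23 after 1 week (adjusted p = 0.86), and the difference between the effects of 4 and 1 weeks was 1.22 ± 0.34 (adjusted p = 0.086), or 1.47 ± 0.26 without RES 4W replicate 1 (adjusted p = 0.0016).

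After 4 weeks of restriction 4 of 34 carrier genes were called, against 5.83% of all genes. Among them Slc25a51 was detected on restricted arrays only. Its place in this count and in those below thus depends on the groups in which it was high. All 4 were higher in RES 4W and 0 were lower, where 2.68% of all genes were called higher and 3.15% lower. The genes were Slc25a20, Slc25a36, Slc25a51 and Slc25a53, with adjusted p-values from 0.043 to 0.0499, close to the threshold. Slc25a25, lower in RES 4W, lay just above the threshold (adjusted p = 0.053, limma). Without RES 4W replicate 1, 9 were called, against 21.5% of all genes: the 4 above and Slc25a34 higher, and Slc25a1, Slc25a3, Slc25a17 and Slc25a25 lower. Without any 1 of the CON 4W arrays, or without RES 4W replicate 2, 3 or 4, the number was 0. Over all 10838 genes only 86 to 190 were called in those fits. Without 1 of the RES 1W or CON 1W arrays, which do not enter the difference itself, the number of carriers called was 0 (RES 1W replicate 1 or CON 1W replicate 4), 2 (RES 1W replicate 2) or 1 (each of the others). In these fits 464 to 572 of 10838 genes were called over all genes. Slc25a25 was called lower without RES 1W replicate 2, beside Slc25a51, and was the only call without RES 1W replicate 3. Groups did not overlap for 8 of 34 genes, against 15.3% of all genes, of which 3 were higher and 5 lower in RES 4W.

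**Figure D2:**
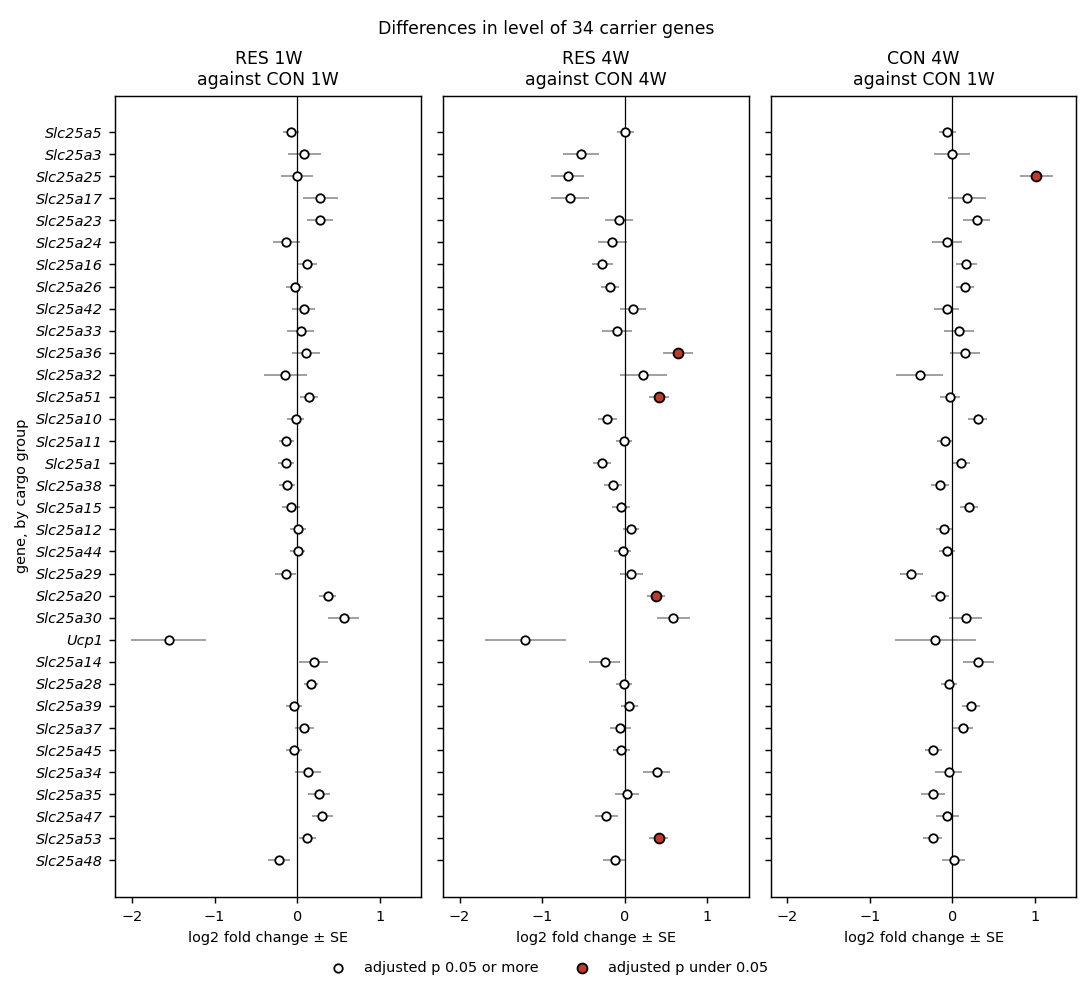
Log2 fold change ± SE (x axis) of each of 34 carrier genes (rows, by cargo group) in 3 comparisons, each titled with the group on top of the difference first. Filled points have an adjusted p under 0.05: 0 genes after 1 week of restriction, 4 after 4 weeks, all to the right, and Slc25a25 with age.

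Slc25a36, a carrier of pyrimidine nucleotides, had levels of 7.20, 7.95, 8.21 and 8.01 in RES 4W and 7.12, 7.12 and 7.34 in CON 4W kidneys. RES 4W replicate 1 lay among the controls, so the groups overlapped, and the other 3 arrays were above all others. The difference was 0.64 ± 0.18 (adjusted p = 0.043, limma; exact permutation p = 0.086, n = 4 and 3), a fold of 1.56, and 0.86 ± 0.12 without replicate 1 (adjusted p = 0.00011). After 1 week it was 0.11 ± 0.17 (adjusted p = 0.86). The other tested probes of the gene, which are dimmer, gave -0.05 ± 0.16 and 0.03 ± 0.20 in RES 4W against CON 4W kidneys (adjusted p = 0.89 and 0.95), so the call rests on 1 probe of 3.

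Slc25a51, the NAD carrier, was dim. Its levels were 5.06, 5.23, 5.07 and 5.03 in RES 4W and 4.73, 4.66 and 4.66 in CON 4W kidneys. It was detected on 4 of 4 RES 4W arrays and on 0 of 3 CON 4W arrays, where it was not above background, so it was at least 1.16-fold higher in RES 4W (0.41 ± 0.12 as fitted, adjusted p = 0.048, limma; 0.43 ± 0.13 without replicate 1, adjusted p = 0.022). That bound sets the RES 4W mean against the lowest signal of a detected probe on each CON 4W array. The probe passed the detection filter only through restricted arrays (3 of 4 RES 1W and 4 of 4 RES 4W, against 0 of 4 CON 1W arrays). Its call thus depends on the groups in which it was high and describes these arrays only. With no filter on dim probes it was not called.

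For Slc25a53, a carrier whose cargo is not settled, the levels were 5.87, 5.94, 6.23 and 6.19 in RES 4W and 5.61, 5.72 and 5.61 in CON 4W kidneys. All RES 4W arrays exceeded all CON 4W arrays (0.41 ± 0.11, adjusted p = 0.043, limma; 0.47 ± 0.11 without replicate 1, adjusted p = 0.0064). The exact permutation p with all arrays was 0.057 (n = 4 and 3). In RES 1W and CON 1W kidneys the level of Slc25a53 ranged from 5.96 to 6.06 and from 5.70 to 6.08.

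**Figure D3:**
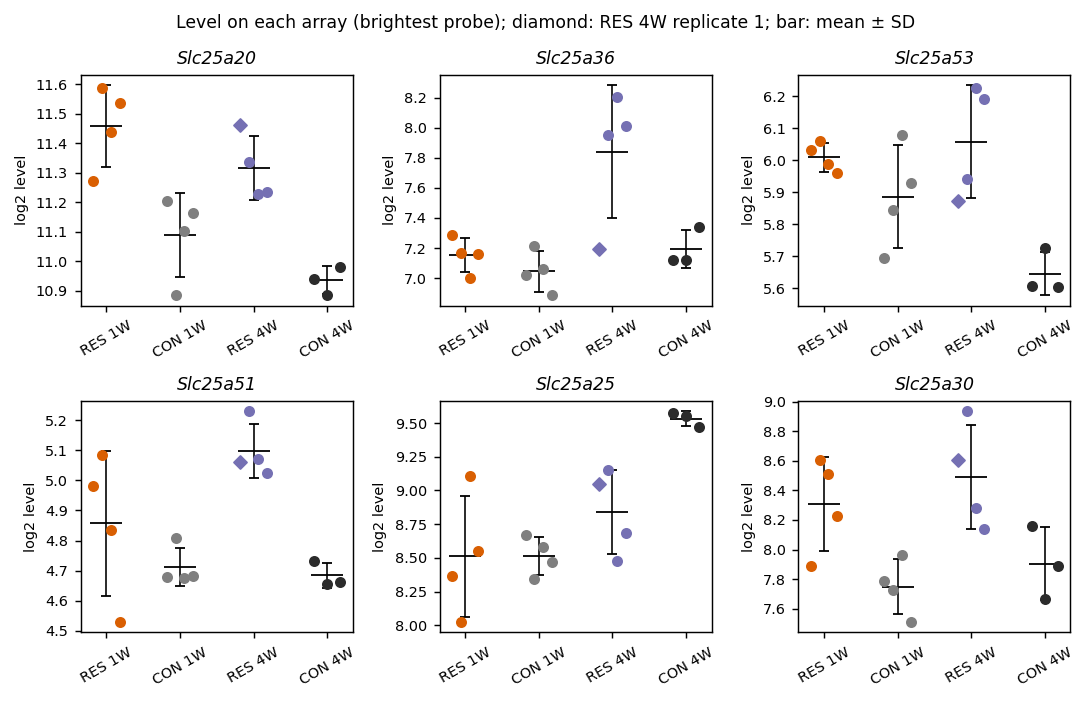
Log2 level on each array (points) of the brightest probe of 6 carrier genes, with the group mean ± SD (bars); the diamond is RES 4W replicate 1. For Slc25a20 all restricted arrays lie above the control arrays of the same age, Slc25a36 is high in 3 of 4 RES 4W arrays, Slc25a25 is highest in CON 4W, and Slc25a30 was not called.

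Slc25a25, which swaps ATP-Mg for phosphate, was the 1 of 34 genes called with age, against 3.42% of all genes. Its levels were 9.57, 9.55 and 9.47 in CON 4W and 8.67, 8.34, 8.58 and 8.47 in CON 1W kidneys. All older controls were above all younger ones, by 1.02 ± 0.20 (adjusted p = 0.012, limma; exact permutation p = 0.029, n = 3 and 4), a fold of 2.02. The call held in 13 other settings and in all 15 fits without 1 array, with adjusted p between 0.0019 and 0.049. Without RES 4W replicate 1, 2 genes were called with age (Slc25a25 and Slc25a29), against 5.15% of all genes, and groups did not overlap for 4 of 34, against 18.2%.
After 4 weeks of restriction the levels of Slc25a25 were 9.05, 9.15, 8.47 and 8.69, below all 3 CON 4W arrays (-0.69 ± 0.20, adjusted p = 0.053, limma; -0.76 ± 0.22 without replicate 1, adjusted p = 0.018). The exact permutation p with all arrays was 0.057 (n = 4 and 3). After 1 week the levels were 8.37, 8.03, 9.10 and 8.55, which overlapped the CON 1W arrays (-0.0029 ± 0.188, adjusted p = 0.997). The effects of 1 and 4 weeks differed by -0.69 ± 0.28 (adjusted p = 0.19).

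With all arrays, Slc25a3, Slc25a17 and Slc25a5 were not called in any comparison. Slc25a3, the phosphate carrier, had levels of 9.90, 8.73, 8.79 and 9.12 in RES 4W and 9.59, 9.45 and 9.96 in CON 4W kidneys: replicate 1 lay within the controls and the other 3 arrays below them. Over all arrays the difference was -0.53 ± 0.22 (adjusted p = 0.14, limma), and without replicate 1 it was -0.79 ± 0.14 (adjusted p = 0.0011). Its second probe gave -0.46 ± 0.18 and -0.66 ± 0.13 without replicate 1 (adjusted p = 0.13 and 0.0017). Slc25a17, the peroxisomal carrier of CoA and adenine nucleotides, had levels of 8.31, 7.32, 7.01 and 7.51 in RES 4W and 8.24, 8.46 and 7.91 in CON 4W kidneys. The same 3 arrays were low, at -0.66 ± 0.23 with all arrays (adjusted p = 0.083) and -0.92 ± 0.16 without replicate 1 (adjusted p = 0.00081). Its effects of 4 and 1 weeks differed by -0.94 ± 0.31 (adjusted p = 0.13), and by -1.20 without replicate 1 (adjusted p = 0.0018). Slc25a5, the adenine nucleotide translocator, ranged from 13.65 to 13.89 in RES 4W and from 13.74 to 13.80 in CON 4W kidneys (0.0051 ± 0.104, or -0.03 ± 0.11 without replicate 1).

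Of the effects whose difference between 4 and 1 weeks was tested, 0 of 34 were called, against 0.572% of all genes, and 5 had an unadjusted p under 0.05, against 17.4%. Without RES 4W replicate 1 it was 3 (Slc25a36 higher, Slc25a3 and Slc25a17 lower), against 13.2% of all genes.

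Among the organic acid carriers, 0 of 3 were called in any comparison. Slc25a1, the citrate carrier, was at 10.11, 9.89, 9.84 and 9.95 in RES 4W against 10.27, 10.23 and 10.15 in CON 4W kidneys, with no overlap (-0.27 ± 0.11, adjusted p = 0.13, limma; -0.33 ± 0.11 without replicate 1, adjusted p = 0.036). Slc25a10, the dicarboxylate carrier, gave 0.30 ± 0.11 in CON 4W against CON 1W kidneys (adjusted p = 0.17) and -0.21 ± 0.11 in RES 4W against CON 4W kidneys (adjusted p = 0.25; -0.19 without replicate 1).

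Slc25a11, the oxoglutarate-malate carrier, depended on the probe. Its brightest probe gave -0.01 ± 0.10 in RES 4W against CON 4W kidneys (adjusted p = 0.96, limma). The second probe had levels of 9.30, 8.60, 8.30 and 8.55 in RES 4W and 9.44, 9.37 and 9.40 in CON 4W kidneys, with all RES 4W arrays below all CON 4W arrays (-0.72 ± 0.20, adjusted p = 0.043; -0.92 ± 0.16 without replicate 1, adjusted p = 0.00067). The third probe gave 0.22 ± 0.13 (adjusted p = 0.30). In Slc25a15, the ornithine carrier, the brightest probe gave -0.05 ± 0.11 and the other 0.47 ± 0.14 (adjusted p = 0.051; 0.59 ± 0.12 without replicate 1, adjusted p = 0.0018). Counted by probe, 6 of 50 were called after 4 weeks (against 6.49% of all probes), including both Slc25a20 probes.

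**Figure D4:**
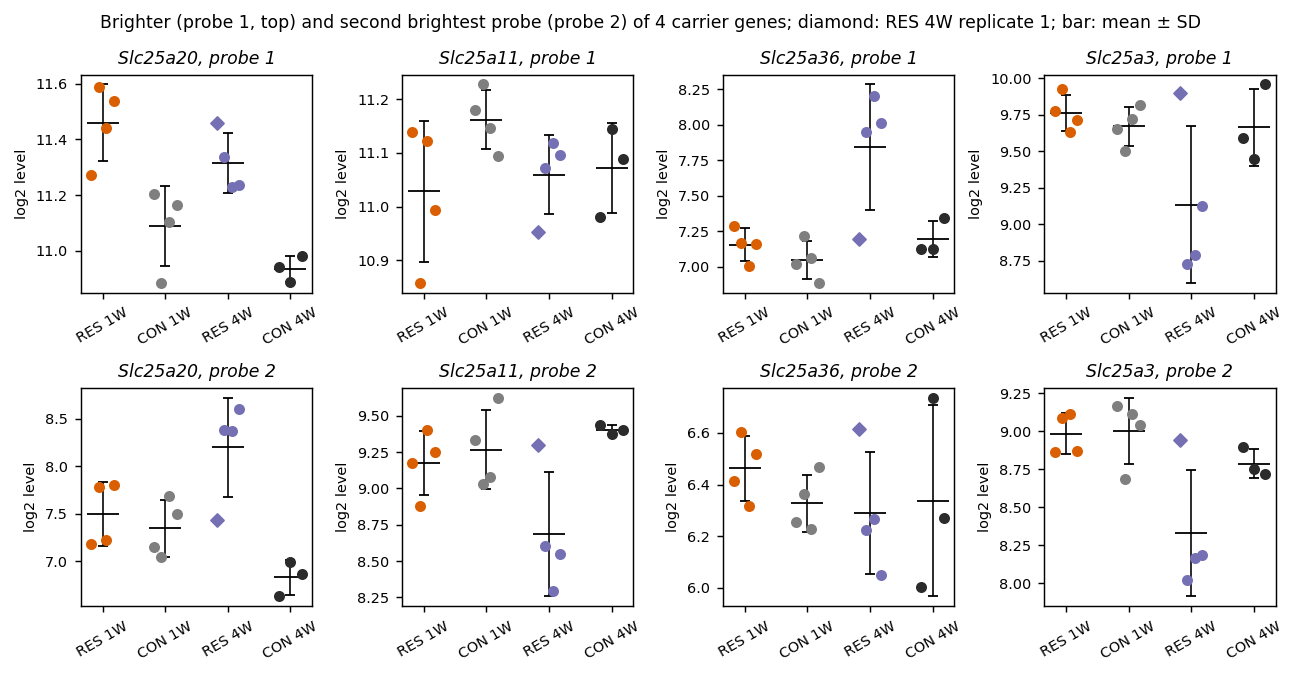
Log2 level on each array (points; diamond: RES 4W replicate 1) of the brightest (top) and second brightest (bottom) probe of 4 carrier genes, with the group mean ± SD (bars). RES 4W replicates 2, 3 and 4 are high for the second Slc25a20 probe (8.37 to 8.60) and low for both Slc25a3 probes, while Slc25a11 and Slc25a36 depart on 1 of the 2 probes shown.

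With all arrays, 0 of the 5 amino acid carriers were called. Slc25a29, the carrier of basic amino acids, gave the most negative value with age, with levels of 5.46, 5.53 and 5.56 in CON 4W and 5.93, 6.31, 5.79 and 6.02 in CON 1W kidneys and no overlap (-0.50 ± 0.14, adjusted p = 0.077, limma; 0.039 without RES 4W replicate 1). Slc25a12, the aspartate-glutamate carrier, lay between -0.10 and 0.07 in the 3 comparisons, and Slc25a38, the glycine carrier, between -0.15 and -0.12. The iron and glutathione carriers (Slc25a28, Slc25a37 and Slc25a39) lay between -0.05 and 0.22, with 0 of 3 called.

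Slc25a30 was at 7.89, 8.60, 8.51 and 8.23 in RES 1W against 7.79, 7.73, 7.96 and 7.51 in CON 1W kidneys, and at 8.60, 8.93, 8.28 and 8.14 in RES 4W against 8.16, 7.67 and 7.89 in CON 4W kidneys. In both comparisons the groups overlapped, by 1 array each at the low end of RES (0.56 ± 0.18 and 0.59 ± 0.20; adjusted p = 0.13 and 0.081, limma), and without RES 4W replicate 1 the 4-week difference was 0.55 ± 0.21 (adjusted p = 0.076). Slc25a34, with no settled cargo, gave 0.39 ± 0.16 after 4 weeks (adjusted p = 0.15; 0.51 without replicate 1, adjusted p = 0.027), and its second probe 0.47 ± 0.16 (adjusted p = 0.079; 0.57 without replicate 1, adjusted p = 0.017). The dimmest probe of Slc25a34 was detected on 3 of 4 RES 4W and 0 of 3 CON 4W arrays, where it was not above background, so it gave a bound of at least 1.05-fold higher in RES 4W (adjusted p = 0.078). This probe too passed the detection filter only through restricted arrays, with 1 of 4 RES 1W and 0 of 4 CON 1W arrays detected. Slc25a47, likewise with no settled cargo, was above every CON 1W array in every RES 1W array (0.30 ± 0.13, adjusted p = 0.26).

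Ucp1 varied more over the arrays than any other tested carrier gene, with an SD of 0.99 over 15 arrays. Its levels were 4.48, 4.42, 5.30 and 4.62 in RES 1W and 4.96, 5.99, 7.49 and 6.60 in CON 1W kidneys, and 5.32, 4.51, 5.16 and 4.41 in RES 4W and 6.59, 6.65 and 4.93 in CON 4W kidneys. The restricted groups had the lower means in both comparisons, but 1 control array in each fell within the range of its restricted group, and neither difference was called (-1.56 ± 0.45 and -1.21 ± 0.49; adjusted p = 0.082 and 0.13, limma). The 4-week difference of Ucp1 was -1.36 ± 0.52 without RES 4W replicate 1 (adjusted p = 0.071). Ucp1 was detected on 1 of 4 RES 1W, 4 of 4 CON 1W, 2 of 4 RES 4W and 3 of 3 CON 4W arrays.
Cidea, a lipid droplet gene of brown fat, and Adipoq, the adiponectin gene of adipocytes, were also not called with all arrays. Cidea gave -1.07 ± 0.52 in RES 1W against CON 1W and -1.06 ± 0.57 in RES 4W against CON 4W kidneys (adjusted p = 0.37 and 0.25), and Adipoq -0.86 ± 0.34 and -0.82 ± 0.37 (adjusted p = 0.24 and 0.17). The 4-week difference of Cidea was -1.21 ± 0.61 without RES 4W replicate 1 (adjusted p = 0.17) and that of Adipoq -1.05 ± 0.37 (adjusted p = 0.049). CON 1W replicate 3 had the highest level of Ucp1, Cidea and Adipoq, at 7.49, 8.05 and 6.65. Cox7a1, which muscle and brown fat express, was 0.58 ± 0.13 higher in RES 4W than in CON 4W kidneys (adjusted p = 0.024; 0.69 ± 0.12 without replicate 1). Over the whole lists, 3 of 4 brown adipocyte markers had a probe and their summed level was 9.56 to 9.74 in RES 1W against 9.70 to 10.14 in CON 1W arrays, and 9.60 to 10.06 in RES 4W against 9.41 to 9.55 in CON 4W arrays, a sum in which Cox7a1 weighs most. The sum of the 5 markers of adipocytes of any kind ran the other way after 4 weeks, at 6.81 to 7.02 in RES 4W against 7.12 to 7.24 in CON 4W arrays with no overlap, and was 6.78 to 7.10 in RES 1W against 6.81 to 7.57 in CON 1W arrays. Only Adipoq of the 5 passed the detection filter, and its own 4-week levels overlapped (4.42 to 5.50 in RES 4W, 5.41 to 5.87 in CON 4W arrays). Lep was at 5.38 in CON 4W replicate 3 against 4.62 and 4.66 in the other CON 4W arrays, which raises that array's sum. Plin1, Cidec, Retn and Elovl3, other adipocyte markers, were detected on 0 arrays, and Lep on 2. The part of adipose tissue in the Ucp1 levels was not tested.

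**Figure D5:**
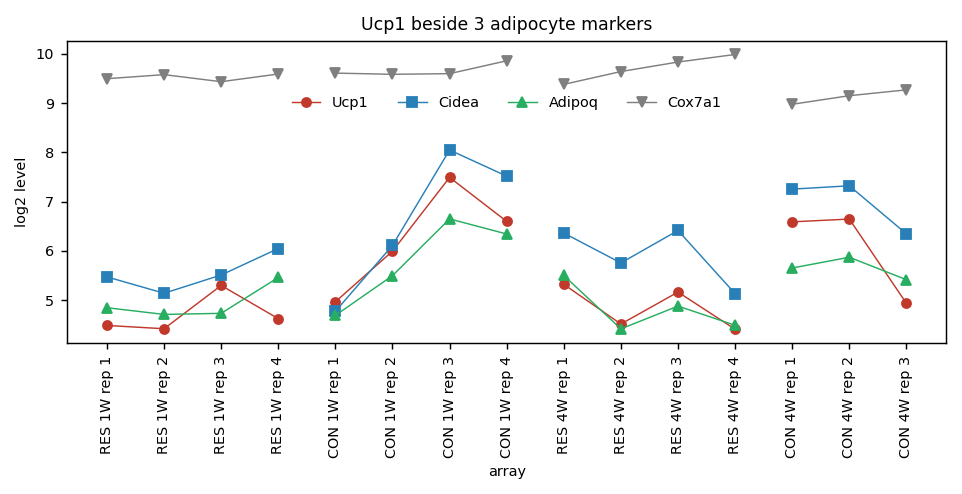
Log2 level (y axis) of Ucp1 and of Cidea, Adipoq and Cox7a1 on each array (x axis, by group). Ucp1, Cidea and Adipoq share their highest array, CON 1W replicate 3; levels of different probes are not comparable in height.

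Genes around the carriers were counted from 4 lists, with 3.4% of all genes called after 1 week, 5.83% after 4 weeks and 3.42% with age. Of the 8 tested import genes, Timm9, a small Tim chaperone, was the 1 called after 1 week and was lower in RES 1W than in CON 1W kidneys (-0.36 ± 0.09, adjusted p = 0.030, limma). After 4 weeks 2 of the 8 were called: Tomm40, the outer membrane channel, was higher (1.06 ± 0.23, adjusted p = 0.020; 1.33 without RES 4W replicate 1) and Timm8a1 lower (-0.56 ± 0.15, adjusted p = 0.039; -0.70 without it). Among 14 other mitochondrial transporters 0 were called in any comparison.

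Among 14 shuttle and carnitine enzymes, 1 was called in each of the 3 comparisons. Cpt1b, an enzyme that makes acylcarnitines, was higher after 1 week (0.58 ± 0.13, adjusted p = 0.020, limma). It was not called after 4 weeks, the comparison in which Slc25a20 was called. Cpt1a was not among the 14 tested genes. Mdh2, the mitochondrial malate dehydrogenase, was lower after 4 weeks (-0.97 ± 0.26, adjusted p = 0.038; -1.29 without RES 4W replicate 1). Oat, ornithine aminotransferase, was lower with age in the controls (-0.47 ± 0.11 in CON 4W against CON 1W, adjusted p = 0.029). Of 11 genes of mitochondrial content, 3 were called lower after 4 weeks, against 3.15% of all genes: Ppargc1b, a coactivator of mitochondrial genes (-0.84 ± 0.15, adjusted p = 0.0097; -0.94 without RES 4W replicate 1), Cs, citrate synthase (-0.46 ± 0.11, adjusted p = 0.030; -0.55 without it), and Hspd1, the matrix chaperonin (-1.20 ± 0.30, adjusted p = 0.031; -1.61 without it). Ppargc1a, the related coactivator, gave 0.61 ± 0.18 (adjusted p = 0.052), or 0.83 without RES 4W replicate 1.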

How the data were processed

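Mouse kidney RNA was hybridised to 15 Illumina arrays. The study reported quantile normalization in GenomeStudio 1.0.2, and the authors deposited the intensity values under a non-normalized label. By their values at or below 0 (34.9%), the deposited intensity values had been background-subtracted. Each has a detection p-value, which the authors deposited beside it. The deposited log2 values of the series table are the log2 of those intensities and are missing for 52.2%. The neqc function (limma 3.58.1, R 4.3.3; normexp, offset 16, quantile normalization) turned the intensities into log2 levels, a second background correction. The filter of a detection p under 0.05 on 3 or more arrays kept 19027 of 45281 probes, which were fitted with lmFit and eBayes over 4 group means, two-sided. Single genes were also tested by exact permutation (70 or 35 regroupings). Groups came from the sample labels, and every array was assigned.

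The members and lists were chosen with earlier results of these data known. Every member could be named, those called with values in every array, and up to 4 genes of each other list. The annotation named probes by 1 gene symbol, and probes with several or none were not used for genes. Replicate numbers were not stated to pair mice. Other settings tried were: the deposited intensities without normexp, a larger offset (50), scaling by the median, the authors' log2 values, no filter and a stricter filter, averaging the probes of a gene, the methods' t-test and ANOVA, limma fitted to 2 groups alone, weights per array, a trended and robust prior, a replicate block, and each array left out in turn. Calling was tested on simulated data. The number of arrays limits the precision.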

Additional observations from a re-analysis of the deposited data

Results flagged for a closer look

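Levels were screened in 102 groups of 4 arrays (34 genes in RES 1W, CON 1W and RES 4W) for an array far from the others of its group by Dixon's test, and 7 were found, where chance gives about 1 in 20. In RES 1W kidneys, Slc25a29 was at 5.60 on replicate 2 against 5.94 to 5.99 on the others, and Slc25a42, a CoA carrier, at 8.57 on replicate 2 against 8.83 to 8.86. Slc25a5 was at 13.53 on RES 1W replicate 4 against 13.84 to 13.86. In CON 1W kidneys, Slc25a24, an ATP-Mg carrier, was at 6.16 on replicate 3 against 5.49 to 5.61, Slc25a38 at 11.17 on replicate 1 against 10.93 to 10.97, and Slc25a51 at 4.81 on replicate 2 against 4.68 on the lowest and highest of the others. Slc25a42 was at 9.21 on RES 4W replicate 1 against 8.54 to 8.63. In the test of the 4-week against the 1-week restriction effect 0 of 34 genes were called, against 0.572% of all genes. It was 3 without RES 4W replicate 1 (Slc25a36, Slc25a3 and Slc25a17), against 13.2% of all genes.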

How the results depend on the processing

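Every setting was read at an adjusted p under 0.05 with no fold cut. Of the 5 calls, Slc25a25 with age held in all 13 other settings and all 15 fits without 1 array. The study's own rule for array data was a false discovery rate under 0.01 with a fold above 1.5. At those thresholds Slc25a25 with age was not called in the main fit (adjusted p = 0.012, limma). The 4 calls after 4 weeks of restriction each held in 4 to 7 of the other settings that could be fitted and in 1 to 3 of the 15 fits without 1 array, with no change of direction. For RES 4W against CON 4W the number called was 4. Over all genes it was 632 of 10838. Without normexp it was 0, against 224 of all genes. With no filter on dim probes it was 0, against 265 of 19057 genes. By the methods' ANOVA it was 0, against 222 genes, and by the methods' t-test 0, against 0. With limma on only the groups compared it was 0, against 2 genes. It was 2 with the authors' processed values, against 474 of 8948 genes, and 9 with array weights, against 2626 of 10838. Over the fits without 1 array it ran from 0 to 9. For RES 1W against CON 1W it was 1 in place of 0 (Slc25a20) with an offset of 50, a stricter filter and the methods' ANOVA. The same held with array weights and with a trended and robust prior. In these settings 360 to 533 genes were called over all genes, against 369 in the main fit. The number ran from 0 to 1 without 1 array, against 209 to 549 over all genes. Ucp1 was the 1 gene without CON 1W replicate 1 or CON 4W replicate 3. With age it ran from 1 to 2 without 1 array, against 198 to 558 over all genes. For the difference of the restriction effects it was 3 with array weights, against 1436 over all genes. Without 1 array it was 0 to 3, against 8 to 1433. The t-test and limma on only the groups compared were not run for the difference. Samples with the same replicate number did not deviate together (r from -0.10 to 0.19), and 3 of 15 arrays correlated best with their own number. With a replicate block the count after 4 weeks was 1, against 399 over all genes, and after 1 week 0, against 308. The numbers of genes called over all genes after 4 weeks ran from 86 to 2326 without 1 array. The cause of these changes was not tested. Signal over background limits Slc25a51, which was above background on 7 of 15 arrays, all of restricted mice.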
